A study of Homo sapiens with 12 samples.

Results

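A set of 10 genes that mark epithelial and mesenchymal cell states were followed here through open chromatin: the epithelial surface genes CDH1 and EPCAM, the mesenchymal genes CDH2, VIM and FN1, and the transcription factor genes ZEB1, ZEB2, SNAI1, SNAI2 and TWIST1. They are 10 of the 20037 protein-coding genes of the RefSeq annotation on GRCh38 that were ranked. Each gene was given every deposited peak with a height of 3 or more that lay in its span or within 10 kb of it. Height is the pileup value of a peak in its own library. A peak within 1 kb of an annotated start was called a promoter peak, and all others were called other peaks.

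The libraries are ATAC-seq, in which a transposase cuts accessible DNA and the fragments are sequenced. KYSE150 and KYSE510 are established lines of human squamous carcinoma of the oesophagus, grown here in RPMI-1640 with fetal bovine serum. HCP5, a non-coding RNA gene, was silenced in one group of each line and left unsilenced in a control group, with 3 libraries per group and 12 in all. The labels give neither the silencing reagent, the control construct, the time after silencing nor whether the replicates were separate cultures, so p-values measure only the spread between these libraries. Every library of a line comes from that line alone, so any difference between KYSE150 and KYSE510 cannot be told apart from differences in how the libraries of each were made or sequenced.

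In the epithelial-mesenchymal transition, epithelial cells loosen their junctions and take on traits of motile, matrix-producing cells. E-cadherin, the product of CDH1, holds neighbouring epithelial cells together. The factors of the SNAIL and ZEB families bind E-box sequences in the CDH1 promoter and repress it, while vimentin, N-cadherin and fibronectin mark the mesenchymal side. Carcinoma lines often lie between the extremes and carry marks of both. An ATAC peak shows that a stretch of DNA was accessible, and the amount of RNA or protein was not measured in these libraries.

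Both lines had open chromatin at epithelial and at mesenchymal genes. VIM, ZEB1 and TWIST1 stood higher among the promoters of KYSE150, and the promoters of CDH2, FN1 and SNAI1 had peaks of height 3 or more in KYSE510 and, in 1 library for SNAI1 alone, in KYSE150. ZEB2 had no promoter peak of that height in any library, yet it carried a set of peaks inside the gene in KYSE510. Silencing of HCP5 changed no member past the test in either line.

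RefSeq promoter sequences were present for 5 of the 10 genes: CDH2, VIM, FN1, ZEB1 and ZEB2. CDH1, EPCAM, SNAI1, SNAI2 and TWIST1 were not in the sequence table. Each window runs from 250 bases before a start to 50 after it on the gene's strand, 300 bases in all, in GRCh38.p14. Capitals mark matches to the E2 box (CACCTG or, on the other strand, CAGGTG), the word read by ZEB and SNAIL family factors, and to the GC box (GGGCGG or CCGCCC), the word read by Sp family factors. In the printed windows no E2 box overlaps a GC box, and GC boxes that overlap one another, as at FN1, were each counted. The printed set holds the ZEB1 window with the most E2 boxes and the VIM window, which lay just outside the accessible region. It also holds the FN1 and ZEB2 windows and 1 of the 2 CDH2 windows, the one at the gene's high-coordinate end. FN1 and CDH2 had promoter peaks of height 3 or more in KYSE510, and ZEB2 had them in no library.
ZEB1, chr10:31318966-31319265, plus strand: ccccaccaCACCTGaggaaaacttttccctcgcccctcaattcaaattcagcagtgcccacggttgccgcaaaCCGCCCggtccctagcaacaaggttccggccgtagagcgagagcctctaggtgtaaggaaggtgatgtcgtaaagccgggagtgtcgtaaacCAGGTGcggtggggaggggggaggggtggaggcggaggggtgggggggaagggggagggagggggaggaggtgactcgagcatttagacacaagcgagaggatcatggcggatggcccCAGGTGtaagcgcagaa
VIM, chr10:17227991-17228290, plus strand: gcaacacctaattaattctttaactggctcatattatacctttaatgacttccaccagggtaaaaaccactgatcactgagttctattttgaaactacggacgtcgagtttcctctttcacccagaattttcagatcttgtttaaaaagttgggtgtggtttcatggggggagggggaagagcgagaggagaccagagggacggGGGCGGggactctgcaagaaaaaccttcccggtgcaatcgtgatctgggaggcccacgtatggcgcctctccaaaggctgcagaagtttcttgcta
FN1, chr2:215436019-215436318, minus strand: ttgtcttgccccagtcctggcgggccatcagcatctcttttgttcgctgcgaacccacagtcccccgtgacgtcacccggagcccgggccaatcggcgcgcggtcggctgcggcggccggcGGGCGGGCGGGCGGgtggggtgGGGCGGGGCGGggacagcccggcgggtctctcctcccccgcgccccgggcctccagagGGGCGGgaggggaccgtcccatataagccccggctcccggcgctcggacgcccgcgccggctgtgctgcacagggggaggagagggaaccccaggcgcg
CDH2, chr18:28177081-28177380, minus strand: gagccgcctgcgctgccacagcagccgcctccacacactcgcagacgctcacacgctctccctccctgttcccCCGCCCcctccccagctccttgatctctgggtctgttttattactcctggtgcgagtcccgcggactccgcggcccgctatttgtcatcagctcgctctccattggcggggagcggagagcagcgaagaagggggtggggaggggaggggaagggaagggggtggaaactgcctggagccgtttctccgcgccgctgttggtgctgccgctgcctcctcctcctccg
ZEB2, chr2:144520070-144520369, minus strand: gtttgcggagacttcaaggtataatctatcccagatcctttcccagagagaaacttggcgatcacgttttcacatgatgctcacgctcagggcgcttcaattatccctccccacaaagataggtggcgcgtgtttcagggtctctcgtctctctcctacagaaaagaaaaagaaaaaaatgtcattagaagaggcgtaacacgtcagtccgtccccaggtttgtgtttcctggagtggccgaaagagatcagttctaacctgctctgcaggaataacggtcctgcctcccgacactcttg

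ZEB1 has 7 windows, and the printed one, picked for having the most E2 boxes, holds 3 of them and 1 GC box. The ZEB1 window chr10:31318167-31318466 holds 1 E2 box, and the others hold none. The shares that follow are per window and not per gene. Of all 35116 promoter windows in the table, 20.6% hold at least 1 E2 box and 0.635% hold 3 or more. The FN1 window holds 6 GC boxes and no E2 box, and 2.86% of all windows hold 6 or more GC boxes, against 45.0% with at least 1. FN1 is also the richest of the 5 in G and C, at 76.7%, with 38 CpG dinucleotides. The printed CDH2 window and the VIM window each hold 1 GC box and no E2 box, and the ZEB2 window holds neither word. CDH2 has a second window, chr18:28036592-28036891, which is not printed and also holds neither word. GC content is 67% in the printed CDH2 window and 40.7% in the second. It is 48% in the VIM window and 49% in the ZEB2 window, beside a median of 58.7% over all windows. These are matches of letters and not measured binding sites.

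The 2 lines had unequal numbers of low and high peaks. All deposited peaks numbered 546453 to 629921 in a KYSE150 library and 115761 to 135841 in a KYSE510 library. At a height of 3 or more the order turned, with 52869 to 63295 peaks in KYSE150 and 104208 to 123109 in KYSE510, so most KYSE150 peaks were lower than 3. A gene without a peak of height 3 can thus still be listed at 1 or 2, and such peaks are given where a line is described as lacking one. A promoter peak was present at 50.6% to 53.8% of the genes in KYSE150 and at 61.8% to 63.8% in KYSE510. The depth in reads is unknown and heights were not normalised between libraries, so each gene's promoter was ranked within its library and the rank is given as a percentile of the 20037 promoters, or as a normal score (the rank turned into standard normal units) in tests. Promoters without a peak share one tied rank, near the 23rd percentile in KYSE150 and the 19th in KYSE510. The 10 genes together had 24 to 32 peaks in a KYSE150 library and 36 to 52 in a KYSE510 library, which is 0.0454% to 0.0532% and 0.0331% to 0.0434% of the library's peaks. Overlapping peaks of the 12 libraries merged into 90 regions at these genes. A peak in all 12 libraries was found for 10 of these regions, beside 7.34% of all merged regions. By line, 35 regions (38.9%) had peaks in both lines, beside 27.9% of all merged regions. Peaks in KYSE150 only were found for 13 (14.4%, beside 12.04% of all) and in KYSE510 only for 42 (46.7%, beside 60.1% of all). A single library held 30 of the regions (33.3%), beside 50.5% of all.

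**Figure D1:**
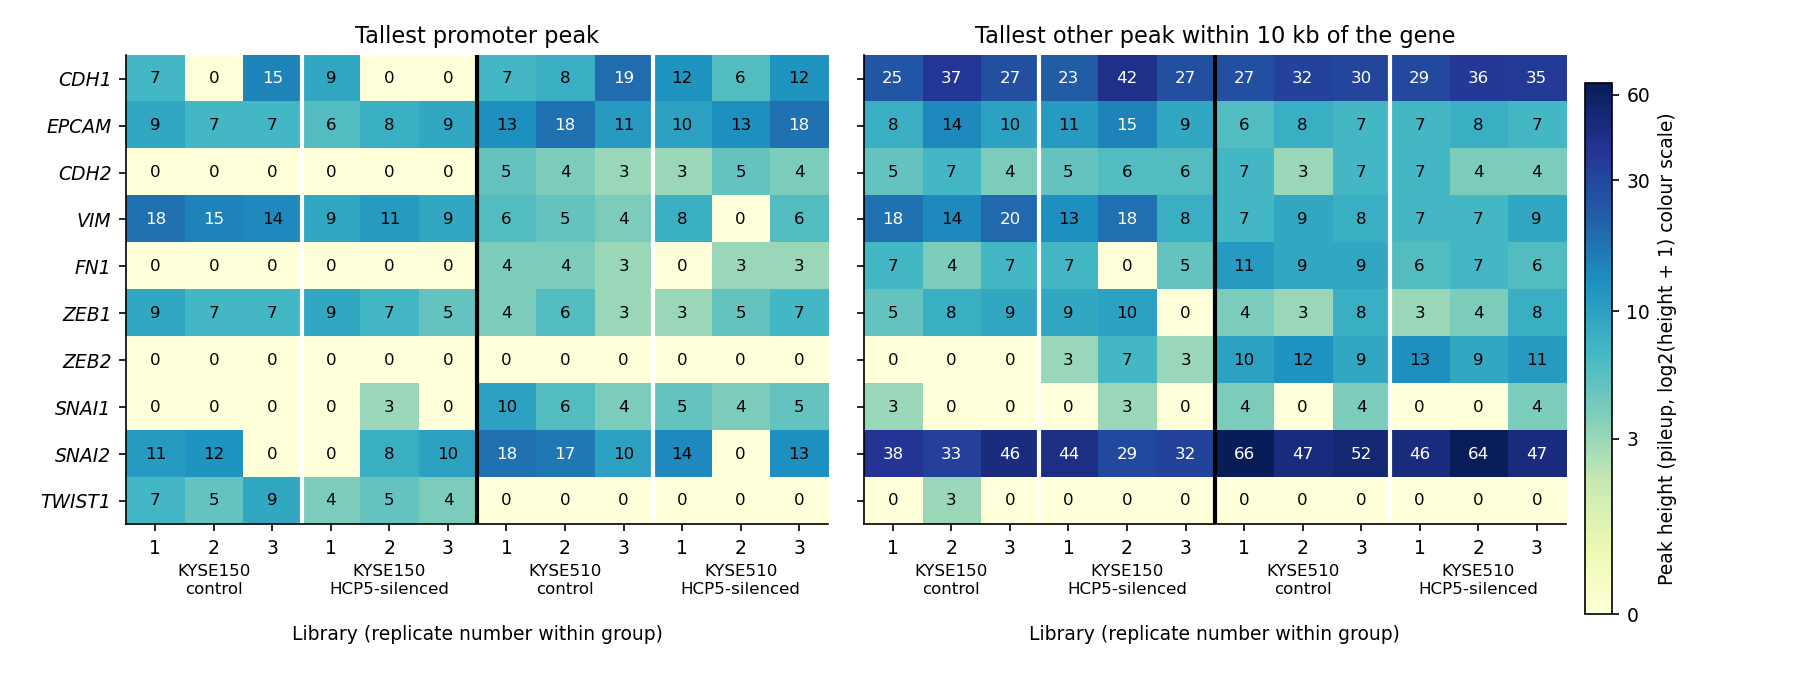
Height of the tallest promoter peak (left) and of the tallest other peak (right) at each gene in each of the 12 libraries, as numbers and as colour on a log2(height + 1) scale, with 0 where no peak of height 3 or more was listed. TWIST1 has promoter values only in KYSE150, CDH2 and FN1 only in KYSE510, and the tallest values, 29 to 66, belong to an other peak of SNAI2.

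CDH1 (chromosome 16, 68737292 to 68835537) encodes E-cadherin, and it had more peaks than any other member in each KYSE150 library, 9 to 16. The promoter peak was 7, 0 and 15 high in the 3 control libraries of KYSE150 and 9, 0 and 0 in the silenced ones. In KYSE510 it was 7, 8 and 19 in controls and 12, 6 and 12 after silencing. The promoter was thus listed in all 6 KYSE510 libraries and in 3 of the 6 KYSE150 libraries, and the heights of the listed peaks overlapped. The local background behind the listed CDH1 promoter peaks was 0.46 to 0.72 in KYSE150, and at such backgrounds the smallest height in these lists was 3. In KYSE510 the background was 0.62 to 0.94. No background is known for the KYSE150 libraries without a CDH1 promoter peak, so a limit of listing there was not tested.

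The tallest CDH1 region did not lie at the promoter. It spanned chr16:68756060-68756685, inside the gene and 19.1 kb from its low-coordinate end, and was present in all 12 libraries. Its height was 25, 37 and 27 in KYSE150 controls, 23, 42 and 27 in silenced KYSE150, 27, 32 and 30 in KYSE510 controls and 29, 36 and 35 in silenced KYSE510. These groups overlapped throughout. A second intragenic region, chr16:68760616-68761275, reached 7 to 19 in KYSE150 and 9 to 18 in KYSE510. Another region, centred 4.9 kb before the gene, overlapped the neighbouring gene CDH3, which encodes P-cadherin, with means of 13.7 ± 3.44 (SD, n = 6) in KYSE150 and 8.5 ± 3.27 (SD, n = 6) in KYSE510. In total 21 regions lay at CDH1, 14 of them in both lines.

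EPCAM (chromosome 2, 47369311 to 47387020), an adhesion molecule of epithelial cells, had a promoter peak in every library. Its promoter height was 9, 7 and 7 in KYSE150 controls and 6, 8 and 9 after silencing. KYSE510 gave 13, 18 and 11 in controls and 10, 13 and 18 after silencing. The KYSE510 heights were all above the KYSE150 heights, but as a percentile of the library's promoters the ranges overlapped, at 67.4 ± 6.10 (SD, n = 6) in KYSE150 and 72.7 ± 7.53 (SD, n = 6) in KYSE510. ZEB1 was the other member with a promoter peak in all 12 libraries, a pattern shown by 41.2% of all genes. The 3 EPCAM regions were each found in every library. The one at chr2:47360842-47361451, centred 8.2 kb before the gene, ran the other way in height, with 8 to 15 in KYSE150 and 4 to 8 in KYSE510.

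VIM (chromosome 10, 17228241 to 17237593) encodes vimentin, the intermediate filament protein of mesenchymal cells. It had the highest mean promoter rank of the 10 genes in KYSE150. The promoter region, chr10:17228307-17228888, began just past the end of the printed start window. Its height was 18, 15 and 14 in KYSE150 controls and 9, 11 and 9 in silenced KYSE150. KYSE510 controls reached 6, 5 and 4 and silenced KYSE510 8, 0 and 6. Every KYSE150 value was above every KYSE510 value, and the percentile was 79.7 ± 5.62 against 44.6 ± 13.3 (SD, n = 6 per line). The local background behind these promoter peaks also differed, at 0.76 to 1.38 in KYSE150 and 0.36 to 0.68 in KYSE510. The share of background in the height difference was not tested. The other VIM region, chr10:17229863-17230950, was also taller on average in KYSE150, with 8 to 20 against 7 to 9 in KYSE510, and the lines overlapped at 8 and 9. Both regions also overlap the antisense gene VIM-AS1, and ATAC peaks carry no strand.

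CDH2 (chromosome 18, 27932879 to 28177130) encodes N-cadherin, which many mesenchymal cells carry in place of E-cadherin. No KYSE150 library listed a promoter peak of height 3 or more, and each of its 3 controls listed one at 1. KYSE510 had 5, 4 and 3 in controls and 3, 5 and 4 after silencing. A region just before the start, chr18:28177927-28178652, was present in all 6 KYSE510 libraries at heights of 3 to 7, and KYSE150 listed it in control replicate 2 alone, at 1. Of the 23 CDH2 regions, 20 were seen only in KYSE510, and 11 in a single library. The intragenic region chr18:27964553-27965356 ran opposite to the promoter, with 3 to 7 in all KYSE150 libraries and 0 to 3 in KYSE510, where 2 libraries had it. A region of equal mean height, chr18:28114900-28115602, was listed in 5 of 6 KYSE150 and 4 of 6 KYSE510 libraries.

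FN1 (chromosome 2, 215360865 to 215436068) encodes fibronectin, a matrix protein that mesenchymal cells secrete. Its promoter, with the 6 GC boxes shown above, had no peak of height 3 or more in KYSE150, where control replicate 2 listed one at 2 and silenced replicates 2 and 3 at 1. In KYSE510 it was 4, 4 and 3 high in controls and 0, 3 and 3 after silencing, close to the lowest height used, and the silenced library given as 0 listed a peak at 2. The promoter region also overlaps FN1-DT, a divergent non-coding gene. The tallest FN1 region was centred 25.1 kb inside the gene, at chr2:215410618-215411272, with 4, 4 and 7 in KYSE150 controls, 7, 0 and 5 in silenced KYSE150, 11, 7 and 9 in KYSE510 controls and 6, 7 and 6 in silenced KYSE510. The lines overlapped there at 6 and 7.

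ZEB1 (chromosome 10, 31318417 to 31529804) encodes a zinc-finger repressor of epithelial genes. Its promoter peaks fell in the region chr10:31318186-31319696, which contains the printed window with the 3 E2 boxes. The height was 9, 7 and 7 in KYSE150 controls, 9, 7 and 5 after silencing, 4, 6 and 3 in KYSE510 controls and 3, 5 and 7 after silencing. Heights of the lines overlapped between 5 and 7, while the percentiles did not, at 62.3 to 70.6 in KYSE150 and 40.2 to 53.4 in KYSE510. The antisense gene ZEB1-AS1 shares this region. The tallest other region, chr10:31353605-31353992, 35.4 kb into the gene, was listed in 11 of the 12 libraries at 3 to 10.

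ZEB2 (chromosome 2, 144384081 to 144520119), the paralogue of ZEB1, had no promoter peak of height 3 or more in any library, while all KYSE150 libraries but silenced replicate 3 listed one at 1. Its peaks lay inside and beyond the gene and were mostly those of KYSE510. The number of peaks of height 3 or more was 0, 0 and 0 in KYSE150 controls, 1, 2 and 1 in silenced KYSE150, 6, 7 and 4 in KYSE510 controls and 6, 5 and 4 in silenced KYSE510. The tallest region, chr2:144414085-144414949, was 9 to 13 high in KYSE510. It was 3, 7 and 3 high in silenced KYSE150 and was listed at 1, 2 and 1 in the KYSE150 controls, under the minimum height used. A further pair of regions, chr2:144456623-144457057 and chr2:144517037-144517969, were present in all 6 KYSE510 libraries, at 4 to 9 and 3 to 6, and reached 3 in no KYSE150 library. The first was listed at 1 or 2 in the 3 KYSE150 controls and at 1 in silenced replicates 1 and 2, and the second at 1 in silenced replicate 1. Of all 290571 merged regions, 3.45% had this pattern at a height of 3 or more and 0.285% the opposite one.

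**Figure D2:**
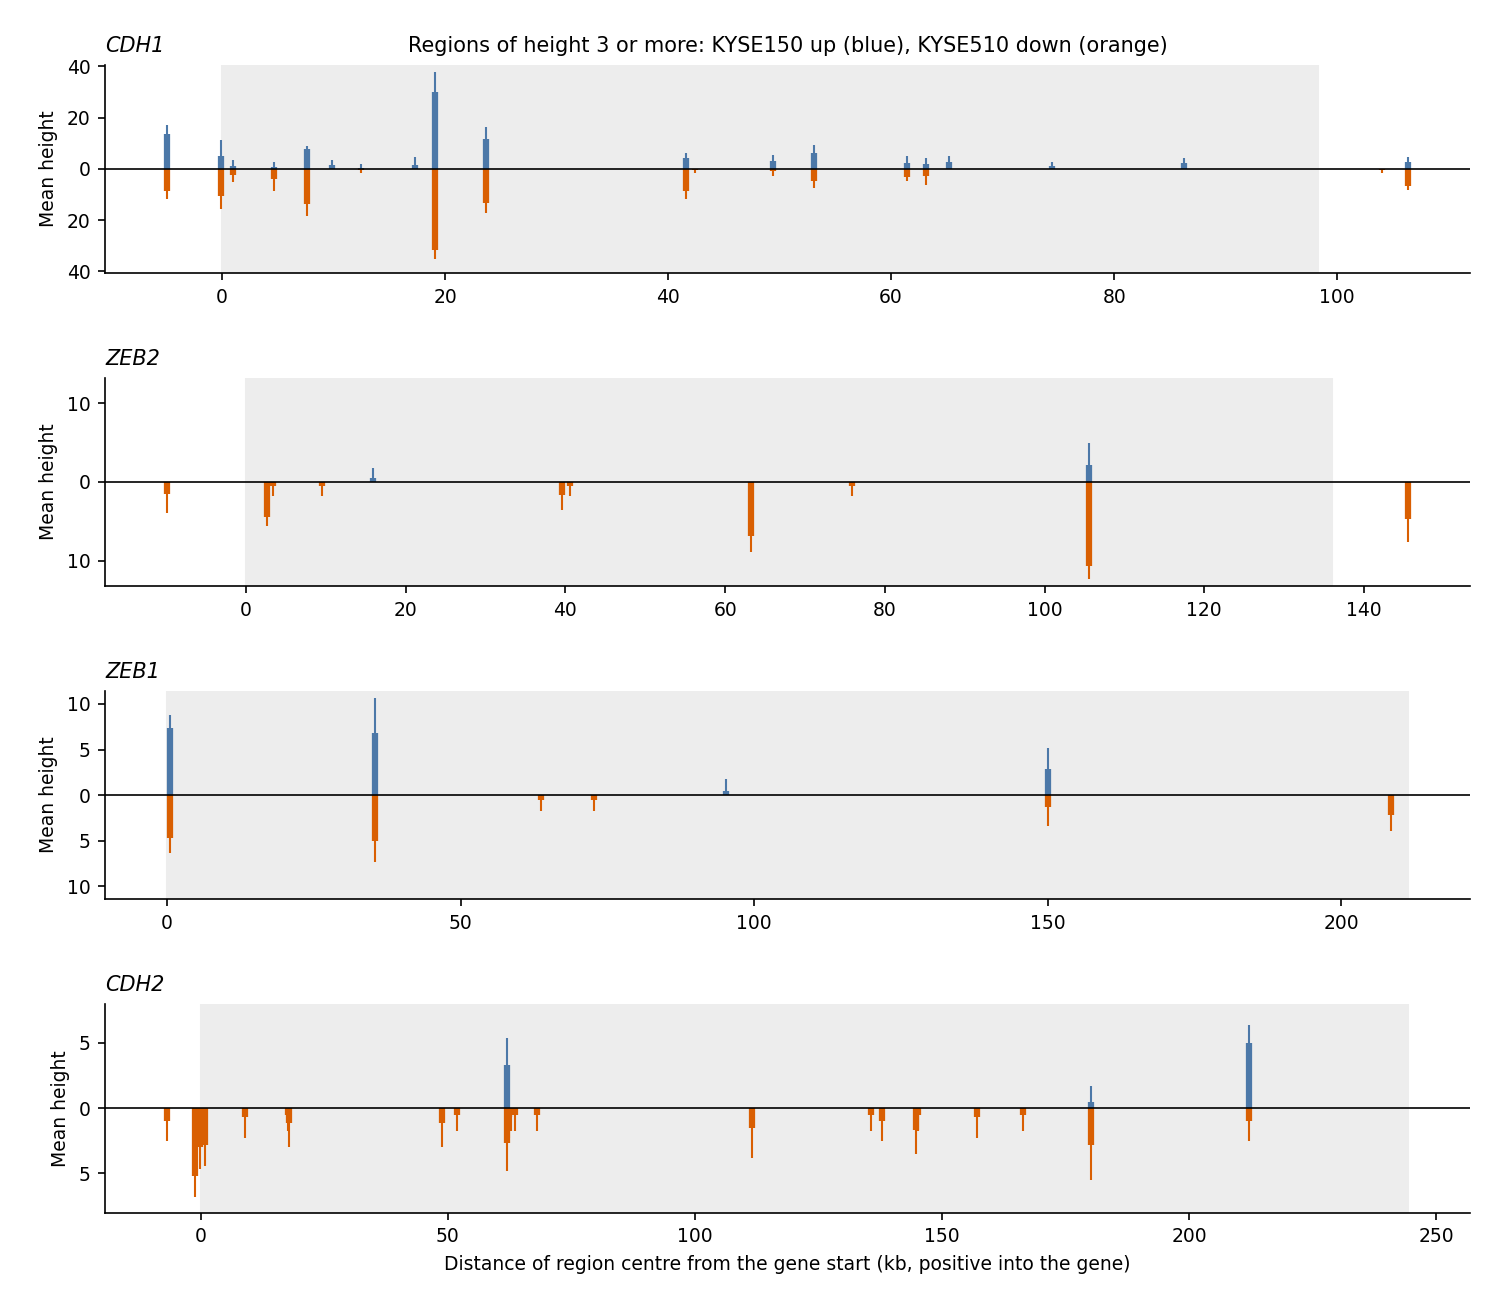
Mean height of each merged region over the 6 libraries of KYSE150 (blue, upward) and of KYSE510 (orange, downward) at CDH1, ZEB2, ZEB1 and CDH2, against the distance in kb of its centre from the gene start (for CDH1 its low-coordinate end). Thin lines reach 1 SD further out, the grey band is the gene, and a region absent from a library counts as 0. CDH1 has its tallest region 19.1 kb inside the gene in both lines, and most ZEB2 and CDH2 regions have no KYSE150 bar.

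SNAI1 (chromosome 20, 49982980 to 49988886) encodes SNAIL, a repressor of CDH1. Its promoter was 10, 6 and 4 high in KYSE510 controls and 5, 4 and 5 after silencing. In KYSE150 it reached 3 in 1 library, a silenced one, and was listed lower, at 2 in control replicate 2 and at 1 in control replicate 3 and silenced replicate 1. The RefSeq sequence table has no start for SNAI1, so both gene ends were searched, and 2 of its 10 promoter-window peaks lay at the high-coordinate end. The other peaks of SNAI1 reached at most 4.

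SNAI2 (chromosome 8, 48917598 to 48921429) encodes SLUG, a relative of SNAIL. It had the tallest region of the whole set, chr8:48923304-48923821, centred 2.1 kb beyond the gene's high-coordinate end and overlapping the non-coding gene LOC107986942. The region was 38, 33 and 46 high in KYSE150 controls, 44, 29 and 32 in silenced KYSE150, 66, 47 and 52 in KYSE510 controls and 46, 64 and 47 in silenced KYSE510. KYSE150 and KYSE510 meet at 46. The promoter itself was 11, 12 and 0 in KYSE150 controls, 0, 8 and 10 in silenced KYSE150, 18, 17 and 10 in KYSE510 controls and 14, 0 and 13 in silenced KYSE510. The local background behind these promoter peaks lay between 1.52 and 1.82 for KYSE150 and between 2.28 and 3.36 for KYSE510. At such backgrounds the smallest heights in the lists were 5 and 7, heights at which TWIST1 and ZEB1 were listed. No background is known for the 3 libraries without a SNAI2 promoter peak, so a limit of listing there was not tested.

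TWIST1 (chromosome 7, 19113047 to 19117636) encodes a basic helix-loop-helix factor of mesoderm and neural crest. It showed the plainest split between the lines. The promoter was 7, 5 and 9 high in KYSE150 controls and 4, 5 and 4 after silencing. No KYSE510 library listed a peak of any height within 10 kb of the gene, heights under 3 included. A promoter peak in all 6 KYSE150 libraries and in none of KYSE510 occurred at 45 of the 20037 genes, 0.225%, and the reverse pattern, shown by CDH2, at 585 genes, 2.92%. Counting any peak within 10 kb, 18 genes, 0.0898%, had one in all 6 KYSE150 libraries and in no KYSE510 library, and 5.45% of genes had none in any KYSE510 library.

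**Figure D3:**
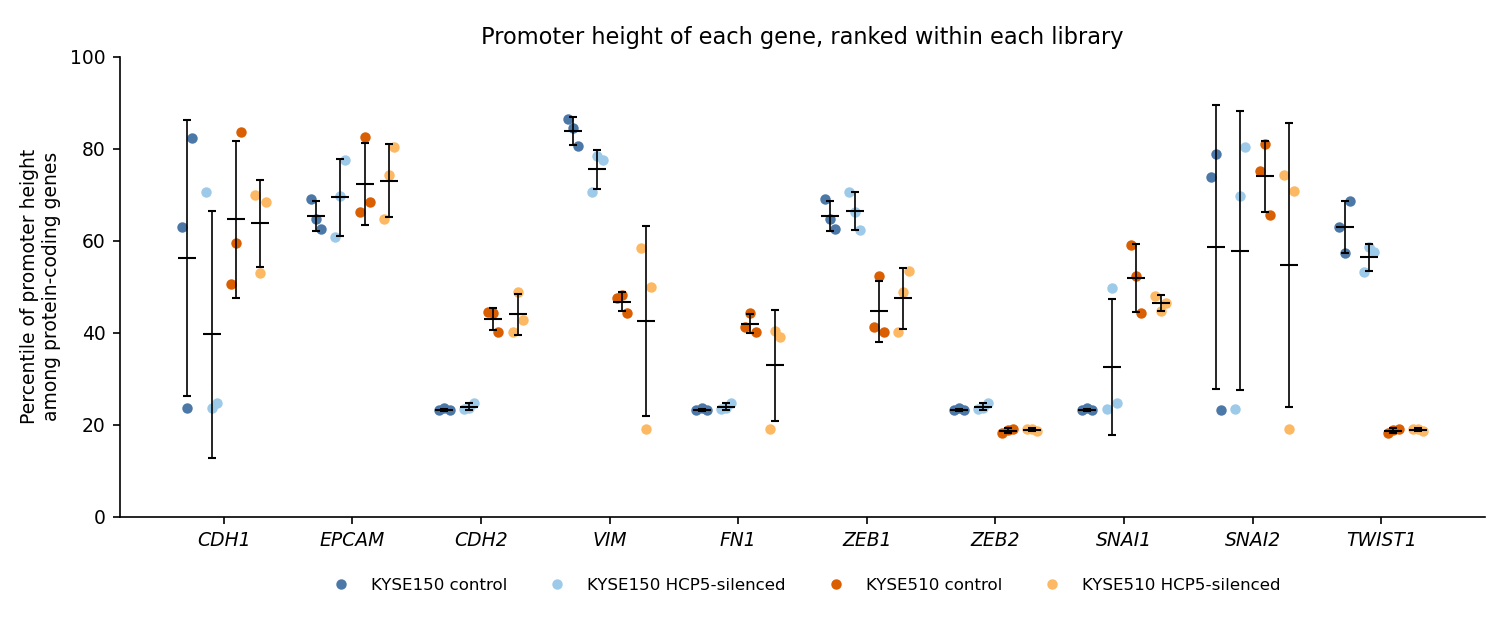
Percentile of each gene's tallest promoter peak among the 20037 promoters of the same library. Coloured points are the 3 libraries of each group, and black bars give the group mean ± SD. VIM, ZEB1 and TWIST1 lie higher in KYSE150, CDH2 and SNAI1 lie higher in KYSE510, and values near 19 or 23 are promoters without a peak.

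Ordered by mean percentile, the promoters of KYSE150 ran VIM, EPCAM, ZEB1, TWIST1, SNAI2, CDH1 and SNAI1, followed by CDH2, FN1 and ZEB2 without a peak of height 3. In KYSE510 the order was EPCAM, SNAI2, CDH1, SNAI1, ZEB1, VIM, CDH2 and FN1, followed by ZEB2 and TWIST1 without a peak. Neighbours in either order overlapped in their ranges over the 6 libraries. EPCAM was second in KYSE150 and first in KYSE510, while VIM was first in KYSE150 and below SNAI1 and ZEB1 in KYSE510.

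The lines were compared by limma on the normal scores of all promoters, with treatment as a covariate and Benjamini-Hochberg adjustment over the 13305 promoters that had a peak in at least 3 of the 12 libraries. In this comparison 35.7% of all promoters tested were called at an adjusted p under 0.05, with 19.9% of those tested higher in KYSE510 and 15.8% lower, so a call between the lines was common. VIM scored 0.99 lower in KYSE510 than in KYSE150 (difference -0.99 ± 0.151 SE, limma adjusted p = 6.89e-05). ZEB1 scored lower by a smaller amount (-0.51 ± 0.107 SE, limma adjusted p = 0.00128). The central 90% of all promoters tested ran from -0.62 to 0.90, so that VIM lay outside it, at the 1.13th percentile, and ZEB1 inside it, at the 8.13th. CDH1, EPCAM and SNAI2 did not pass. The CDH1 difference was 0.44, with a 95% interval from -0.13 to 1.01 (limma adjusted p = 0.222). For EPCAM it was 0.16, from -0.10 to 0.43 (limma adjusted p = 0.342), and for SNAI2 0.15, from -0.52 to 0.83 (limma adjusted p = 0.741).

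TWIST1, CDH2, FN1 and SNAI1 entered the test through the line in which they had peaks, so a difference had to appear and its p-value is a description. TWIST1 differed by -1.13 ± 0.114 SE (limma adjusted p = 8.3e-07), which lies at the 0.688th percentile of all differences. CDH2 differed by 0.55 ± 0.115 SE (limma adjusted p = 0.00116), SNAI1 by 0.58 ± 0.147 SE (limma adjusted p = 0.00546) and FN1 by 0.39 ± 0.141 SE (limma adjusted p = 0.0425). The last call was weak: leaving out single libraries gave FN1 limma adjusted p-values from 0.00382 to 0.0844. FN1 was called only in the fit without silenced KYSE510 replicate 1 and missed the threshold in every other such fit. ZEB2 was not tested, having no promoter peak of height 3 or more.

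**Figure D4:**
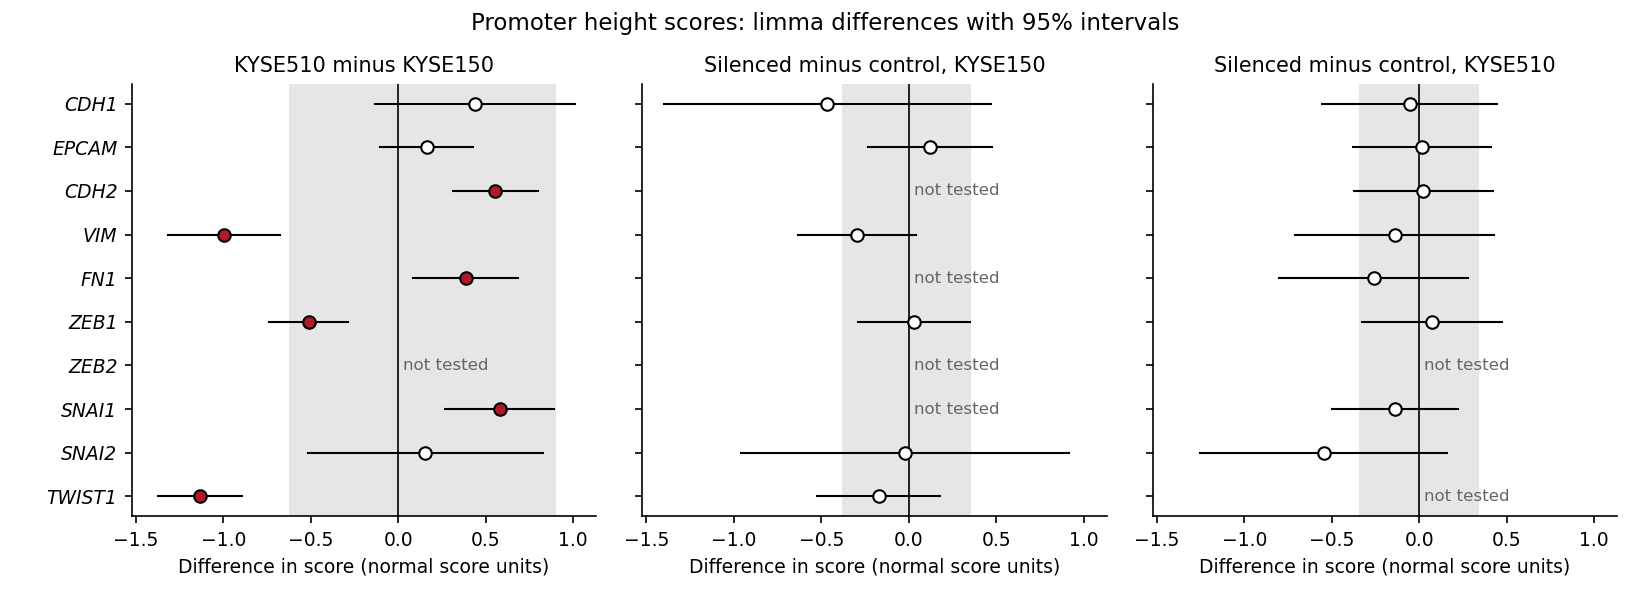
Differences in promoter score with 95% intervals from limma, for KYSE510 minus KYSE150 and for silenced minus control in each line. Red points passed an adjusted p of 0.05, open points did not, and the grey band holds the central 90% of all promoters tested. Members pass only in the comparison of lines, and in both silencing panels each interval crosses 0.

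For single regions the same comparison of lines, added after the data had been seen, called 37.9% of 112117 regions and 22 of the 47 member regions tested. Some of the member regions had peaks in 1 line alone and entered the test through it. For those a difference had to appear, which limits what the count says. The second VIM region scored lower in KYSE510 (-0.80 ± 0.109 SE, limma adjusted p = 6.03e-05), as did the region before EPCAM (-0.72 ± 0.119 SE, limma adjusted p = 0.000306). The tallest ZEB2 region scored higher (0.95, limma adjusted p = 0.00638). The SNAI2 region with the greatest height did not differ by rank (-0.03, limma adjusted p = 0.770). The tallest CDH1 region scored 0.32 lower in KYSE510 (difference -0.32, limma adjusted p = 0.0436), and this call ended in 8 of the 12 fits that left out 1 library, with adjusted p-values up to 0.10.

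The number of other peaks per gene depended on how the larger number of KYSE510 peaks of height 3 or more was treated. Divided by the library's number of peaks, on a log2 scale, 42.7% of 17536 genes differed between the lines, 10.1% higher and 32.6% lower in KYSE510, with a median difference of -0.37. Without the division the median was 0.56, and 7189 genes were higher and 304 lower. ZEB2 was higher in KYSE510 with the division (1.67 ± 0.349 SE, limma adjusted p = 0.00172). CDH1 (-1.07 ± 0.151 SE, limma adjusted p = 0.000124), EPCAM (-0.93 ± 0.173 SE, limma adjusted p = 0.000816) and VIM (-0.81 ± 0.224 SE, limma adjusted p = 0.00983) were lower with the division. Without it, CDH1 differed by -0.14 (limma adjusted p = 0.506), EPCAM by 0 and VIM by 0.12 (limma adjusted p = 0.565). Their peak numbers as listed, promoter included, were alike in both lines: 9 to 16 at CDH1 in KYSE150 and 9 to 15 in KYSE510, 3 to 4 at EPCAM in each, and 2 at VIM in all but 2 libraries.

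Silencing of HCP5 was tested within each line on the same scores. In KYSE150, 0% of the 10890 promoters tested were called (limma, Benjamini-Hochberg; 476 at an unadjusted p under 0.05). In KYSE510, 0.0235% were called, 3 of 12790 promoters, none of them at the 10 genes. The difference in response between the lines was called at 1 of 13305 promoters, 0.00752%, again not at a member.

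VIM was the one member whose promoter ranks did not overlap between control and silenced libraries. In KYSE150 its percentile was 83.8 ± 3.0 in controls and 75.5 ± 4.26 after silencing (SD, n = 3 per group). By a two-sided exact permutation test p was 0.10, the smallest that 3 libraries against 3 allow, and 4.89% of all promoters tested in KYSE150 were lower without overlap. In the fit over all promoters VIM differed by -0.30 ± 0.154 SE (limma unadjusted p = 0.0788, adjusted p = 0.967), and leaving out single libraries gave -0.36 to -0.22. Its KYSE510 difference was -0.14, with a 95% interval from -0.71 to 0.43, and the difference between the 2 responses had an adjusted p of 0.979 (limma).

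The other promoters overlapped between control and silenced libraries in both lines. In KYSE510, 5.63% of all promoters tested were higher and 5.54% lower without overlap, and no member was among them. In KYSE150 the differences of the 6 tested members ran from -0.47 at CDH1, where the silenced libraries had 1 promoter peak and the controls 2, to 0.12 at EPCAM. In KYSE510 those of the 8 tested members ran from -0.55 at SNAI2, where 1 silenced library had no peak, to 0.07 at ZEB1. The central 90% of all promoters ran from -0.38 to 0.35 in KYSE150 and from -0.34 to 0.34 in KYSE510.

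By number of peaks, ZEB1 and ZEB2 did not overlap between the KYSE150 groups, and they moved in opposite directions. ZEB1 had 4, 4 and 6 peaks in controls and 3, 2 and 2 after silencing, a pattern that 2.88% of genes showed. ZEB2 had 0 of height 3 or more in each control and 1, 2 and 1 after silencing, which 0.985% of genes showed in that direction. Both patterns hold at this minimum height. Peaks under 3 numbered 30, 20 and 23 at ZEB1 in controls and 35, 41 and 25 after silencing. At ZEB2 they numbered 42, 43 and 35 in controls and 34, 43 and 31 after silencing. Both had an exact permutation p of 0.10, the smallest possible. In limma over all genes the other peaks of ZEB2 differed by 1.94 ± 0.451 SE (unadjusted p = 0.00326, adjusted p = 0.730) and those of ZEB1 by -1.07 ± 0.530 SE (adjusted p = 0.817). ZEB2 entered this test through the silenced libraries alone, so its p-value is a description. No gene of the 14448 tested was called in this comparison (847 at an unadjusted p under 0.05). KYSE510 showed no such separation at any member, where 3.02% of genes had more peaks and 1.41% fewer without overlap.

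Among the members' own regions the smallest p-value of the silencing comparison in KYSE150 belonged to the tallest ZEB2 region, with no height of 3 or more in controls and 3, 7 and 3 after silencing (difference 1.42 ± 0.383 SE, limma unadjusted p = 0.00575, adjusted p = 0.437). It entered the test through the silenced libraries alone. Among the members' regions in KYSE510 it was the CDH1 region chr16:68760616-68761275, with 18, 18 and 12 in controls and 12, 9 and 11 after silencing, where the groups meet at 12 (difference -0.33 ± 0.137 SE, limma unadjusted p = 0.0395, adjusted p = 0.622). Regions called over the whole genome were 0 of 53600 in KYSE150 (2861 at an unadjusted p under 0.05) and 1 of 94991 in KYSE510, or 0.00105%, and none was at a member.

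Other genes of the epithelial and mesenchymal programmes placed the 10 in context. Of 24 epithelial junction and identity genes, 19 had a promoter peak in all 6 KYSE150 libraries and 17 in all 6 KYSE510 libraries. Of all genes, 50.6% to 53.8% had one in a single KYSE150 library and 61.8% to 63.8% in a single KYSE510 library. Between the lines, 23 epithelial genes were tested, and 5 were higher and 5 lower in KYSE510. Of all promoters tested, 19.9% were higher and 15.8% lower. The median difference was 0.00, against 0.01 over all promoters. CLDN1 and OVOL1, both called higher, had no promoter peak of height 3 or more in KYSE150 and entered the test through KYSE510 alone. The junction gene F11R was among those higher in KYSE510, at heights of 29 to 48 in KYSE150 and 85 to 136 in KYSE510, as was ELF3, an epithelial transcription factor, at 7 to 15 and 26 to 44. PKP1, a desmosome protein gene, was lower, at 5 to 9 in KYSE150 and 0 to 3 in KYSE510.

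Of 26 further mesenchymal genes, 7 had a promoter peak in all 6 KYSE150 libraries and 16 in all 6 KYSE510 libraries. Promoter peaks were also more frequent over all genes in KYSE510, at 61.8% to 63.8% per library against 50.6% to 53.8% in KYSE150. With 21 tested, 9 were higher and 3 lower in KYSE510, beside 19.9% higher and 15.8% lower of all promoters tested. The median difference was 0.27, against 0.01 over all promoters. Some of the mesenchymal genes entered the test through KYSE510 alone, which limits what the counts say. LOX, a collagen crosslinking enzyme, had no promoter peak of height 3 or more in KYSE150 and heights of 12 to 21 in KYSE510, and TGFBI, a matrix protein induced by TGF-beta, went from 0 to 3 up to 14 to 21. MMP14, a membrane-bound matrix protease, was lower, at 0 to 6 in KYSE150 and 0 in KYSE510. TWIST2, the paralogue of TWIST1, had the opposite pattern to it, with no KYSE150 peak of that height and 3 to 7 in KYSE510. No gene of either list was called after silencing in either line.

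The labelled cell type was checked on promoters of marker genes. Of 9 squamous epithelial markers, 4 had a promoter peak in all 6 KYSE150 libraries and 7 in all 6 KYSE510 libraries, and KRT5 reached 9 to 17 and 9 to 20. TP63 had no promoter peak of height 3 or more at the starts used in any library. KRT14 had none in KYSE150 and reached 0 to 3 in KYSE510. Of 6 fibroblast markers, 0 had a peak throughout KYSE150 and 1, COL1A1, throughout KYSE510, with summed heights of 3 to 24 and 10 to 25. PDGFRA reached 0 to 7 in each line, and COL1A2 reached 0 to 5 in KYSE150 and 0 in KYSE510. PDGFRB, DCN and LUM had no promoter peak of height 3 or more in any library. Of the blood cell markers, PTPRC had no promoter peak of height 3 or more in any library, while CD3E reached 0 to 3 in KYSE150 and 0 to 4 in KYSE510. SPI1 reached 7 to 9 in KYSE150 and 8 to 18 in KYSE510, and CD14 reached 0 to 5 and 8 to 16. The part of other cell types in the results was not tested. The summed heights of 5 endothelial markers were 0 in KYSE150 and 0 to 5 in KYSE510.

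The genes with promoter ranks most like TWIST1 over the 12 libraries, by mean absolute difference in percentile, were LCP1 (1.21 percentile points), SYT1 (2.05) and ZNF300 (2.16). For VIM they were HACD1 (5.40 percentile points), TASOR2 (5.84) and MKRN3 (5.89). HACD1 had mean percentiles of 78.2 in KYSE150 and 44.7 in KYSE510, beside 79.7 and 44.6 for VIM.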

How the data were processed

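Peak lists of 12 ATAC-seq libraries were used. Per the submitters' processing notes, Trimmomatic 0.36, Bowtie2 2.2.6, Picard 2.8.2, MACS2 2.1.1 and bedtools 2.25.0 were applied on GRCh38, with no step order given. Per the file headers, the deposited pileup is a signal (peak height) and the fold enrichment is a ratio to local background. The deposited p-values reached at most 0.00987. Read depth is unknown.

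Starts came from the RefSeq promoter table for 15842 of 20037 genes (79.1%), and both gene ends were used for the rest, including CDH1, EPCAM, SNAI1, SNAI2 and TWIST1. No exon annotation was used. Promoters and merged regions (overlap of 1 bp) were ranked within libraries and tested with limma 3.58.1 (R 4.3.3, eBayes with trend). Features needed a peak in 3 of the libraries compared. Other peaks were tested on log2((peaks + 0.5) / library peaks). Local background was solved as (height + 1) / fold - 1. The tests were also run on simulated data with planted shifts. The smallest shifts tried were mostly missed there, so a feature that was not called can still have changed. All 10 members are described. Their regions are named when tallest, when present in all libraries of one line and none of the other, or when having the smallest silencing p. The 3 genes most like the 2 members that differed most are named. Genes named from the longer lists and markers were chosen after their values were seen. The members and lists were chosen with earlier results of these data known. For the blood cell markers, 1 gene and the summed height are not reported here.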

Additional observations from a re-analysis of the deposited data

How the results depend on the processing

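In the comparison of lines, the promoter calls of VIM and ZEB1 kept their side of the threshold under every alternative run. At a minimum height of 5 the member calls numbered 3 of 7 tested in place of 6 of 9. Over all promoters they numbered 4230 of 11805 in place of 4752 of 13305. CDH2 and FN1 had too few peaks of height 5 to test, and SNAI1 missed (0.37, limma adjusted p = 0.128). With all deposited heights FN1 (adjusted p = 0.0710) and SNAI1 (0.0619) missed, and FN1 also missed with fold enrichment ranked (0.0824), with a 2 kb window (0.342) and with either gene end used for all genes (0.0505). SNAI2 turned to -0.0461 with fold enrichment ranked and ran from -0.0904 to 0.40 without single libraries, being below 0 (-0.0904 and -0.0247) without KYSE150 control replicate 3 or silenced replicate 1. Without division by peak number, other peaks turned to 0.12 at VIM, 0.67 at FN1, 0.59 at ZEB1, 0.39 at SNAI1 and 0.49 at SNAI2. A minimum height of 5 turned them to -1.20 at CDH2 and 0.10 at FN1. With log2 heights centred on the library median, 75013 regions differed between lines in place of 42487 (5406 higher, 69607 lower). The median difference was -1.50 in place of 0.23, and the part of the centring itself in this shift was not tested. The FN1 region then gave -1.62 and the ZEB2 regions -0.13 and -0.0604. Without single libraries the FN1 region ran from -0.13 (without silenced KYSE150 replicate 2) to 0.25 and the SNAI2 region from -0.0764 to 0.00815 (without silenced KYSE150 replicate 1).

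Silencing called no member in any alternative. Promoters called in KYSE510, 3 as reported, were 0 with fold enrichment ranked, 1 with a 2 kb window and 0 to 6 without single libraries. In KYSE150 they were 0 to 1 without single libraries. The difference between responses, 1 as reported, was 0 at a minimum height of 5, with fold enrichment ranked, and with windows of 500 bp or 2 kb, 3 with centred log2 heights, and 0 to 1 without single libraries. Other peaks gave 145 calls in KYSE150 and 50 in KYSE510 without division, in place of 0. Regions called in KYSE510, 1 as reported, were 16 at a minimum height of 5, 0 with fold enrichment ranked and 0 to 11 without single libraries. The causes were not tested. Same-numbered libraries correlated at -0.0013 to 0.033 within lines, so the numbers do not pair them. A replicate block gave 0 calls for the difference between responses and 2 regions in KYSE510, and 4787 promoters between lines in place of 4752.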
